A study of Mus musculus with 15 samples.

Results

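The Nr4a orphan nuclear receptors, Nr4a1 (Nur77), Nr4a2 (Nurr1) and Nr4a3 (Nor1), were followed in the mouse hippocampus during the extinction of contextual fear. The members are the array probes whose gene name is Nr4a1, Nr4a2 or Nr4a3. They are 3 of the 27962 gene names on the array, with 1 probe each among 41174 gene probes. All the mice were male C57BL/6J, an inbred strain, with no transgene or deletion named in the labels. E1 mice received a footshock in a box and were sampled 1 h after extinction trial 1, in which they were put back in that box without a shock. ELF mice had the same shock and were sampled 1 h after trial 5, when they froze less, with trials 24 h apart. The design text describes the control mice as having been in the box but not shocked, whereas their sample names call them naive, and the labels give neither their interval before sampling nor the age of any mouse. Each group had 5 arrays of separate biological samples. The labels do not say whether a sample is 1 mouse or a pool.

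Nr4a receptors are transcription factors that bind DNA like other nuclear receptors but have no established hormone ligand, so their activity is set largely by how much of them a cell makes. In neurons the genes are immediate early genes: calcium and cyclic AMP signals switch them on within minutes through CREB and other factors already present, with no need for new protein. The proteins bind the NBRE, a short response element, as monomers, and Nr4a1 and Nr4a2 also pair with the retinoid X receptors. In the mouse hippocampus the family is known for its role in the consolidation of long-term contextual memory.

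The probe sequences are shown because each gene was measured by 1 probe alone. They are in the array design's letters, in lower case, and the coordinates are those of the mouse build mm7 in the file headers. For Nr4a1 only the first 30 bases are given, since the 60-base probe has no frame without a stop codon. The Nr4a2 and Nr4a3 probes have 1 and 2 such frames. The coordinates run in descending order for Nr4a2, and for Nr4a3 they span 3187 bases for a probe of 60. Isoforms that lack these stretches were not measured.
Nr4a1 probe, chr15:101260484-101260543, first 30 bases: ctcttccgctctccttccatgtgtacataa
Nr4a2 probe, chr2:57108976-57109035: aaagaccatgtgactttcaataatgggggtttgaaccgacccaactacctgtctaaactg
Nr4a3 probe, chr4:48081632-48084818: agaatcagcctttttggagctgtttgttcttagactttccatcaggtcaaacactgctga

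The promoters are shown because the 3 genes are usually described as targets of CREB, which binds the cyclic AMP response element TGACGTCA and its shorter core TGACG. Below are the 250 bases before each gene's start in RefSeq (GRCm38.p6), read 5′ to 3′ along the gene's strand. Capitals mark the core TGACG on either strand, so CGTCA is the same core read from the other strand.
Nr4a1, chr15:101266596-101266845, plus strand: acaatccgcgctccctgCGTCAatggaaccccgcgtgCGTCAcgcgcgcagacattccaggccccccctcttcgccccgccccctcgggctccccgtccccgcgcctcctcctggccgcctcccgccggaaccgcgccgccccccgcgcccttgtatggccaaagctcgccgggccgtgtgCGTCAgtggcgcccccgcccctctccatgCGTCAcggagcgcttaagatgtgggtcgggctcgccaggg
Nr4a2, chr2:57124004-57124253, minus strand: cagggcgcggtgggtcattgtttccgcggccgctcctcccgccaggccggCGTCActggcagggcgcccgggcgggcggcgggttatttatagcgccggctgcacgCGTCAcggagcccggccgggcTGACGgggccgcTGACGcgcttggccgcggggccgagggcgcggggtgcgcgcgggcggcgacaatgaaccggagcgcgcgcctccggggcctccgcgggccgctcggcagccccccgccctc
Nr4a3, chr4:48045055-48045304, plus strand: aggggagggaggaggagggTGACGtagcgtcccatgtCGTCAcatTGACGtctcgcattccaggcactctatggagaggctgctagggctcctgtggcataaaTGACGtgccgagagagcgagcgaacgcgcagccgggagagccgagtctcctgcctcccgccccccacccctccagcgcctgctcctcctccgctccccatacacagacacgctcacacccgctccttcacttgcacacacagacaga

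Each of the 3 windows held 4 cores. Of 32851 such windows in the RefSeq table, 17.8% held at least 1 core and 45 (0.137%) held 4 or more. Read from the start site, the cores lay 40 to 233 bases upstream in Nr4a1, 111 to 200 in Nr4a2 and 147 to 231 in Nr4a3. The full element TGACGTCA was in none of the 3 windows and in 1.55% of all windows. The AP-1 site TGACTCA, searched like the others on both strands, was also in none, against 4.46% of all windows. The NBRE letters AAAGGTCA were in none, against 1.34%. The MEF2 consensus was found in the Nr4a2 window alone and in 2.92% of all windows. The core lies within the full element, so these 2 counts overlap. A match to letters is a description and not a measured binding site.

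All values below are log2 processed intensities relative to the 75th percentile of the same array, and differences are first group minus second with the standard error (SE) of the fit. Groups were compared with limma over 38457 probes, and a probe was called at a Benjamini-Hochberg adjusted p under 0.05. That percentile ranged from 1445 to 2929 in intensity units. The arrays were printed on 4 slides, taken here as batches. Of the control arrays 4 were alone on slide 1 and control 5 was on slide 2 with E1 1, 2 and 3. The other E1 arrays were on slide 3 with ELF 3 and 4, and slide 4 carried ELF 1, 2 and 5. Control and ELF arrays shared no slide. The share of spots well above background was 90.5% to 92.2% in control, 85.2% to 93.1% in E1 and 83.5% to 97.2% in ELF. Every marker of hippocampal neurons fixed for this work (8 of 8) was detected on all 15 arrays. Their mean level was 1.33 to 1.51 in control, 1.33 to 1.68 in E1 and 1.48 to 1.74 in ELF.

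Nr4a1 was higher 1 h after the first extinction trial than in control hippocampus, by 1.83-fold. Its levels in the 5 control arrays were 2.94, 2.78, 3.12, 2.97 and 3.34. In the 5 E1 arrays they were 4.16, 3.82, 4.09, 3.72 and 3.74. Every E1 array was above every control array, with control 5 the nearest from below and E1 4 the nearest from above. The means were 3.90 ± 0.21 (SD, n = 5) in E1 and 3.03 ± 0.21 (SD, n = 5) in control. The difference was 0.88 (SE 0.13, 95% interval 0.60 to 1.15, limma adjusted p = 0.0239). Over the same comparison 40 of 38457 probes were called (0.104%), 27 of them higher (0.0702%) and 13 lower (0.0338%), and Nr4a1 ranked 14 by p. Groups that did not overlap, with E1 above control, were found for 1.97% of probes. In bulk tissue, fewer cells of a type and less RNA per cell cannot be told apart, and the same holds for more of either.

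**Figure D1:**
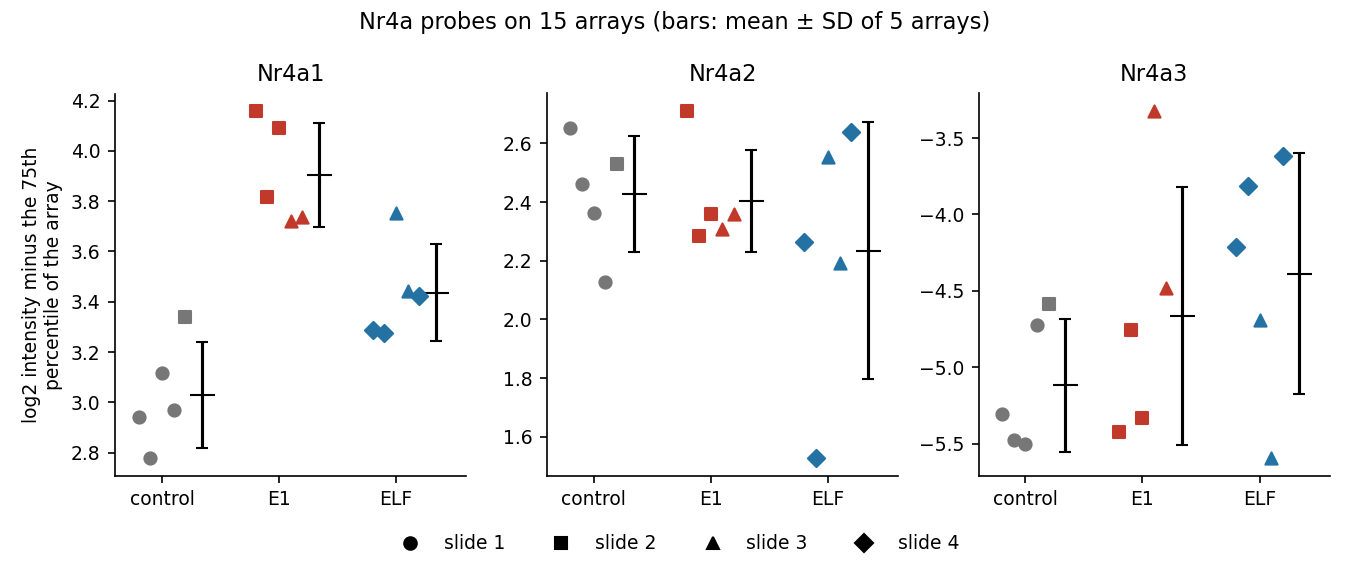
Level of each Nr4a probe on the 15 arrays (log2 intensity minus the 75th percentile of the array). Points are coloured by group and shaped by slide, and bars show the mean ± SD of 5 arrays. Nr4a1 in E1 lies between 3.72 and 4.16, above all control arrays (2.78 to 3.34), while the groups overlap for Nr4a2 and Nr4a3.

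The size of the Nr4a1 difference changed less than its call. Within slide 2, the 3 E1 arrays exceeded the lone control array by 0.68 on average, where the median of all probes was -0.04. A larger positive difference was seen there for 0.481% of probes. E1 and control shared slide 2 alone, so a fixed block for slide gives this same comparison, which rests on control 5. With slide as a fixed block the value was 0.68 (limma adjusted p = 0.961), and with slide as a random block 0.73 (limma adjusted p = 0.432). The replicate numbers of E1 and control were taken as pairs from a correlation check on these same data, which cannot establish pairing. With the replicate number as a block the adjusted p of limma was 0.0608 over 15 arrays and 0.0171 over the 10 arrays of both groups. Leaving out 1 array at a time kept the difference between 0.81 and 0.95. The adjusted p of limma was then between 0.000857 and 0.0929, and the threshold was passed without control 5, E1 2 or E1 4 and missed without any of the other 7.

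At the low-freezing trial Nr4a1 lay between the other groups. The 5 ELF arrays read 3.29, 3.28, 3.75, 3.44 and 3.42, with a mean of 3.44 ± 0.19 (SD, n = 5). The lowest ELF arrays were below control 5, and ELF 3 was above E1 4 and E1 5, so ELF overlapped both groups. The difference from control was 0.41 (SE 0.13, 95% interval 0.13 to 0.68, limma adjusted p = 0.0933) and was not called, in a comparison where 2.36% of probes were (907 of 38457). Without control 5 the difference was 0.48 (limma adjusted p = 0.0355). ELF differed from E1 by -0.47 (SE 0.13, 95% interval -0.75 to -0.19, limma adjusted p = 0.339), also not called. In that comparison limma called 2 probes (0.0052%), with 3840 (9.99%) at an unadjusted p under 0.05, Nr4a1 among them (unadjusted p = 0.00279 by limma).
Within slide 3, where 2 ELF and 2 E1 arrays were side by side, the Nr4a1 difference was -0.13 and the median of all probes -0.18. The ELF comparisons with control and with E1 each share a group with the comparison of E1 and control, so their values for Nr4a1 are not independent. In order, the levels were E1, ELF and control, and neither neighbouring pair was called.

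**Figure D2:**
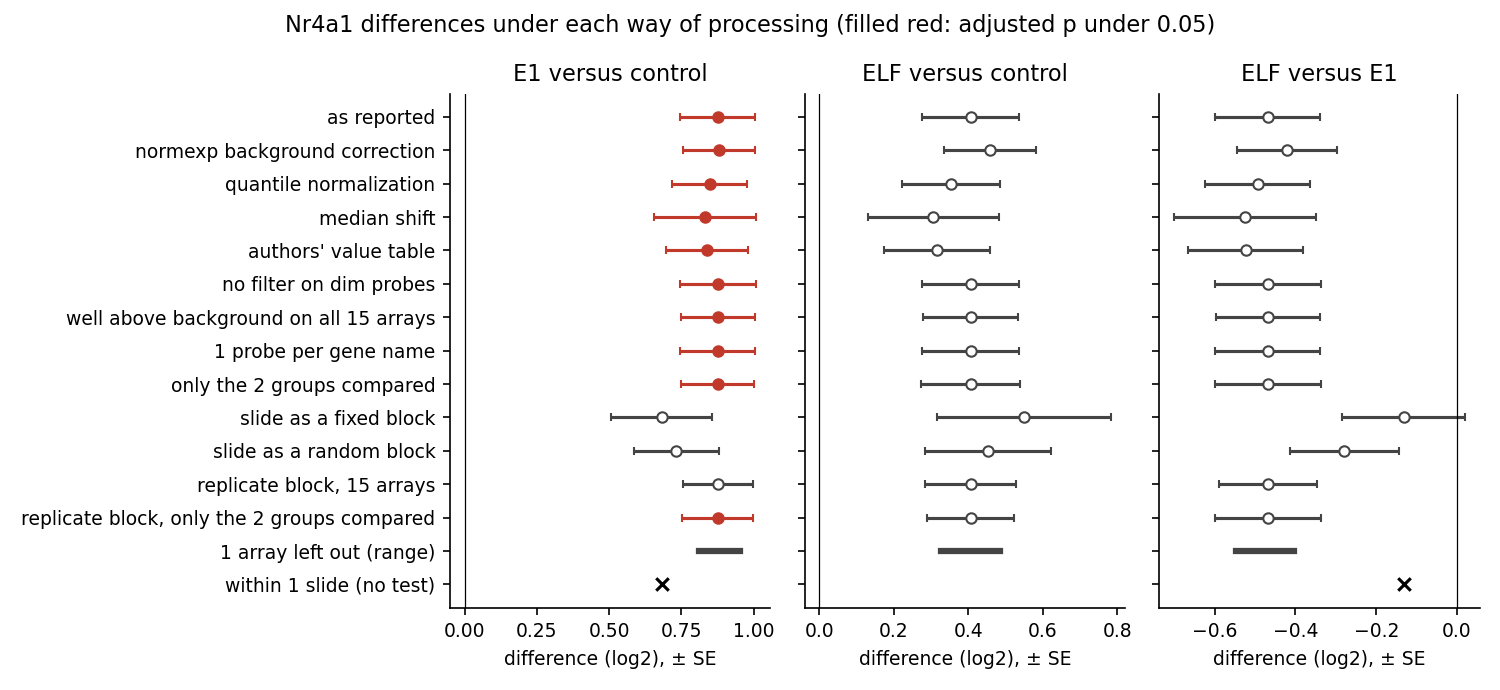
Nr4a1 difference (log2, ± SE) in each of the 3 comparisons under every way of processing and with each array left out. For E1 against control all points lie between 0.68 and 0.95, and the filled red points are those with an adjusted p under 0.05.

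The genes whose levels were most like Nr4a1 over the 15 arrays were themselves immediate early genes. Among 26049 genes the 5 highest Pearson correlations were with Egr2 (0.97), a zinc finger transcription factor, Fos (0.93), a subunit of AP-1, Arc (0.92), a synaptic protein that regulates AMPA receptor traffic, Dusp1 (0.92), a phosphatase of MAP kinases, and Ier2 (0.92), a nuclear early response protein. The 15 points share array, slide and group, so the correlations are descriptions without a test. Egr2 had a mean of -1.72 ± 0.26 (SD, n = 5) in control, -0.50 ± 0.37 (SD, n = 5) in E1 and -1.09 ± 0.36 (SD, n = 5) in ELF. Arc had 2.82 ± 0.04 (SD, n = 5), 3.99 ± 0.24 (SD, n = 5) and 3.22 ± 0.36 (SD, n = 5) in the same order. As for Nr4a1, the middle group of both was ELF. Both genes were picked for their likeness to Nr4a1 on these same arrays. A shared order of groups is therefore favoured by the choice and is no separate support.

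**Figure D3:**
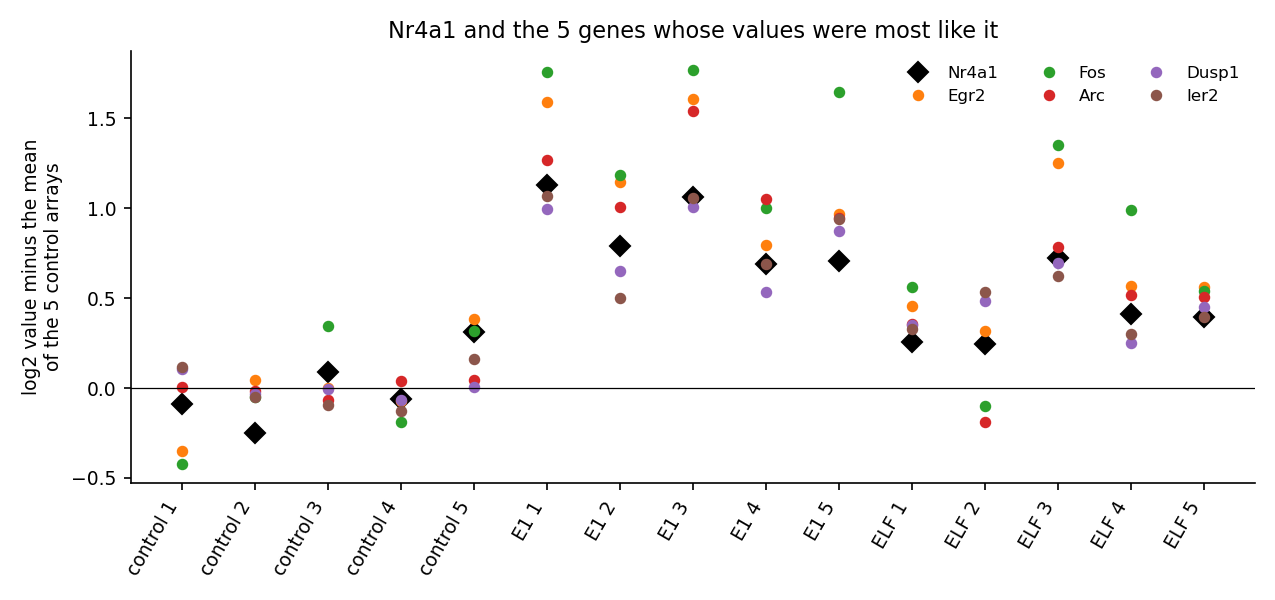
Log2 level of Nr4a1 (diamonds) and its 5 most similar genes on each array, minus the mean of the 5 control arrays. All 6 genes are above 0 on each E1 array, and ELF 3 is the highest of the 5 ELF arrays for all 6. The similar genes were picked by their correlation with Nr4a1 on these arrays, which favours such likeness.

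Nr4a2, the receptor needed for midbrain dopamine neurons to form and a regulator of their tyrosine hydroxylase gene in mice, was not called in any comparison. Its control arrays read 2.65, 2.46, 2.36, 2.13 and 2.53. Its E1 arrays read 2.71, 2.28, 2.36, 2.31 and 2.36, and its ELF arrays 2.26, 1.53, 2.55, 2.19 and 2.64. All 3 groups overlapped, E1 1 stood above the other E1 arrays, and ELF 2 was the lowest of the 15. The means were 2.43 ± 0.20 (SD, n = 5) in control, 2.40 ± 0.17 (SD, n = 5) in E1 and 2.23 ± 0.44 (SD, n = 5) in ELF. E1 differed from control by -0.02 (SE 0.18, 95% interval -0.41 to 0.36, limma adjusted p = 0.975). The upper end of that interval is below the lower end for Nr4a1 (0.60), although the difference between the genes was not itself tested. ELF differed from control by -0.19 (95% interval -0.58 to 0.19, limma adjusted p = 0.534) and from E1 by -0.17 (95% interval -0.56 to 0.22, limma adjusted p = 0.801). Without ELF 2 the difference from E1 was 0.007, so the lower ELF mean rests on that array.

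The genes most like Nr4a2 over the arrays were Satb1 (Pearson r 0.94), a chromatin organiser, Fstl1 (0.89), a secreted glycoprotein, Unc13c (0.88), a synaptic vesicle priming factor, Zdhhc1 (0.87), of the palmitoyltransferase family, and Odz2 (0.86), now Tenm2, a teneurin of the cell surface. Spearman's rho over the same arrays was 0.83, 0.71, 0.89, 0.54 and 0.74 in that order. For all but Unc13c, rho was lower than r.

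Nr4a3 was a dim probe, at 2.1 to 5.2 times its local background, although it was scored well above background on all 15 arrays. Nr4a1 was at 265 to 678 times its local background and Nr4a2 at 109 to 364 times, and no member was saturated. Nr4a3 read -5.31, -5.48, -5.51, -4.72 and -4.58 in control. It read -5.43, -4.76, -5.33, -3.32 and -4.48 in E1 and -4.21, -3.81, -4.69, -5.60 and -3.62 in ELF. The groups overlapped, with E1 4 the highest array and ELF 4 the lowest. The means were -5.12 ± 0.44 (SD, n = 5) in control, -4.67 ± 0.85 (SD, n = 5) in E1 and -4.39 ± 0.79 (SD, n = 5) in ELF.

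No Nr4a3 difference was called. E1 differed from control by 0.45 (SE 0.42, 95% interval -0.44 to 1.35, limma adjusted p = 0.695), ELF from control by 0.73 (SE 0.42, 95% interval -0.16 to 1.63, limma adjusted p = 0.303) and ELF from E1 by 0.28 (SE 0.42, limma adjusted p = 0.870). The intervals leave room for changes as large as that of Nr4a1. The directions did not hold within slides: E1 minus control was -0.59 within slide 2 and ELF minus E1 was -1.24 within slide 3. Control and ELF shared no slide, so a fixed block for slide compares them only through these differences. For control that comparison rests on control 5, the only control array on slide 2. With slide as a fixed block ELF minus control was -1.83 (limma adjusted p = 0.127). The 4 arrays with the highest Nr4a3 (E1 4, ELF 5, ELF 2 and ELF 1) were also the 4 arrays with the largest share of spots well above background. Beyond them the ranks agreed less. ELF 4 ranked 15 in both, but E1 5 ranked 5 for Nr4a3 and 14 for that share, and control 1 ranked 10 and 5. The part of this spot detection in the Nr4a3 values was not tested.

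**Figure D4:**
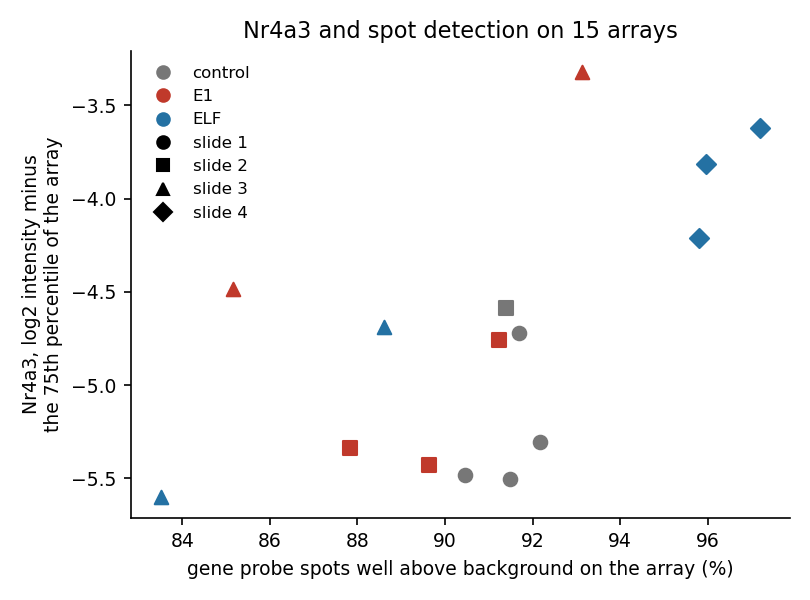
Nr4a3 level on each array (log2 intensity minus the 75th percentile of the array) against the percentage of gene probe spots well above background on that array, coloured by group. The 4 highest Nr4a3 values, from -4.21 to -3.32, are on the 4 arrays with 93.1% to 97.2% of spots well above background.

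The genes nearest to Nr4a3 over the arrays were 3 transcripts without a gene symbol in the array design, together with Hoxc12 (Pearson r 0.91), a homeobox gene of the posterior body axis, and Ttn (0.91), the giant muscle protein titin. Among the members, Pearson's r over the 15 arrays was 0.18 for Nr4a1 and Nr4a2, 0.08 for Nr4a1 and Nr4a3, and -0.30 for Nr4a2 and Nr4a3. These values were not tested. With 15 arrays and a dim Nr4a3 probe, they do not show how far the 3 members vary together.

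Around the receptors, 7 lists of genes were read from the same fit, with 138 of their 139 genes measured. Of 20 immediate early transcription factors, 5 were called higher in E1 against control and 0 lower, with a median difference of 0.30 against 0.04 for all probes. The 5 called were Fos by 1.47 (SE 0.25, limma adjusted p = 0.0431), Egr2 by 1.22 (SE 0.20) and Junb by 0.88 (SE 0.15), an AP-1 subunit. The others were Ier2 by 0.85 (SE 0.12) and Csrnp1 by 0.78 (SE 0.09), a nuclear protein of the early response. Egr1, a zinc finger factor, differed by 0.61 (limma adjusted p = 0.109) and Npas4, an activity-dependent factor of neurons, by 0.73 (limma adjusted p = 0.194), and neither was called. By sign alone 16 of the 20 were higher in E1 and 3 lower. The lower ones were Nfil3 (-0.75, every E1 array below every control array), Klf4 (-0.47) and Jun (-0.22). None of them was called, and Nfil3 and Jun were named after their values were seen. Of 14 immediate early effectors, 2 were called higher: Arc by 1.16 (SE 0.16) and Dusp1 by 0.81 (SE 0.11), with a list median of 0.30. In these 2 lists, called genes were 5 of 20 and 2 of 14, where 0.104% of all probes were called. With slide as a fixed or as a random block, 0 of the 20 and 0 of the 14 were called, with the 7 differences then between 0.71 and 1.26. With the replicate block these counts were 0 and 0 over 15 arrays, where 2 of all 38457 probes were called. Over the 10 arrays of both groups they were 10 and 6, but that fit called 4400 of all probes. Leaving out 1 array at a time gave 1 to 7 called transcription factors and 0 to 5 called effectors, in fits that called 5 to 1630 probes. Csrnp1 was called in 10 of these 10 fits, Dusp1 in 8, Arc in 7 and Ier2 in 4, whereas Fos, Egr2 and Junb were called in 1, the fit without control 5.

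In E1 against control without a block, no gene was called in the lists of genes that control or work with the receptors. In E1 against control, 13.1% of all probes had an unadjusted p under 0.05. Of 19 measured regulators of Nr4a transcription, such as CREB, its coactivators, MEF2 factors and histone deacetylases, 0 were called by limma (1 at an unadjusted p under 0.05), with a median of 0.02. Mef2c differed by 0.04 and Ep300, a histone acetyltransferase, by -0.22. Of 15 partners and coregulators 0 were called by limma (2 unadjusted), with a median of -0.03, and Rxra, the retinoid X receptor that pairs with Nr4a1 and Nr4a2, differed by -0.17 (limma adjusted p = 0.656). Of 13 genes described as Nr4a targets 0 were called by limma (1 unadjusted), with a median of 0.20. Their control means ran from -5.87 (Fbp2) to 0.66 (Bdnf). Th (-4.67), Ret (-4.86) and Foxp3 (-4.84) were near the level of the dim Nr4a3 probe (-5.12), so for such genes the absence of a call says little. In that list Bdnf, a neurotrophin of plasticity, differed by 0.38 (SE 0.10, limma adjusted p = 0.104) with E1 above control on every array. Fosl2, an AP-1 subunit, differed by 0.20 (limma adjusted p = 0.506) and Slc6a3, the dopamine transporter, by 0.34 (limma adjusted p = 0.537). Of 15 endoplasmic reticulum chaperones and their regulators 0 were called by limma (0 unadjusted), with a median of -0.11. The main luminal chaperone Hspa5 differed by -0.12 and the disulfide isomerase Pdia6 by -0.21 (limma adjusted p = 0.405). With the replicate block over the 10 arrays of both groups, which called 4400 probes, 2 partners and 2 described targets were called, and 0 regulators and 0 chaperones. Over 15 arrays the replicate block called 0 in each of these 4 lists.

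**Figure D5:**
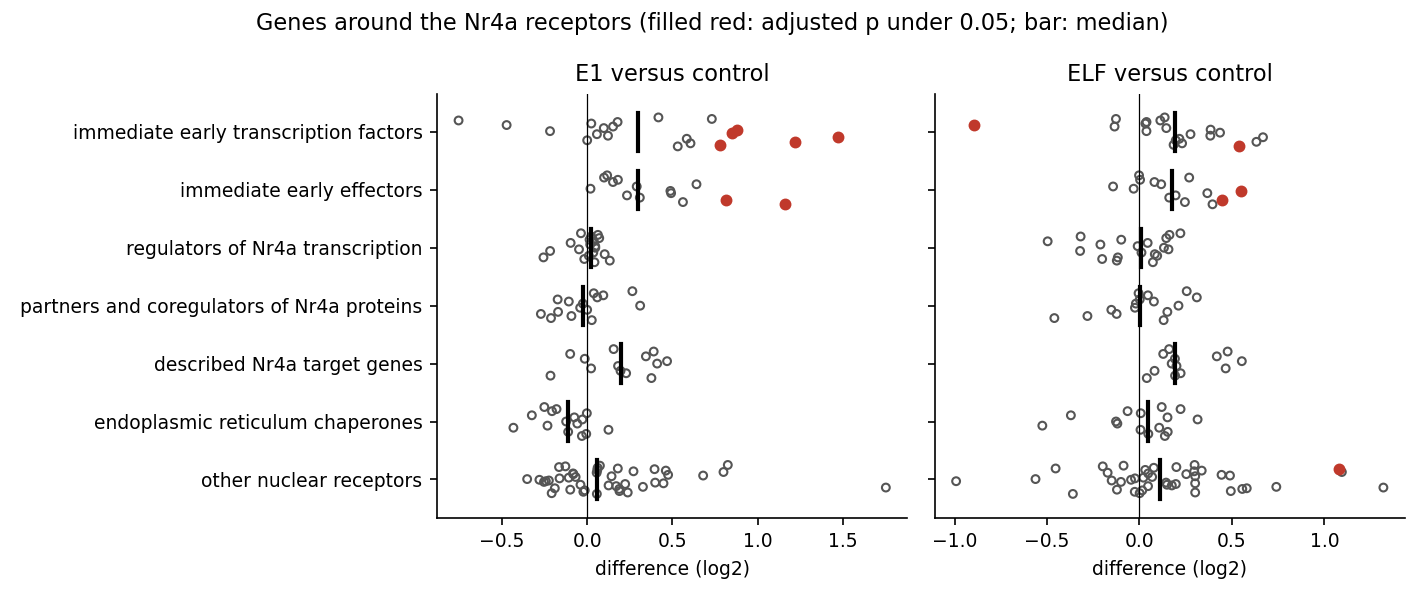
Differences (log2) of each measured gene of the 7 lists in E1 against control and in ELF against control. Bars mark the median of each list, and filled red points an adjusted p under 0.05. In E1 against control the red points lie in the immediate early lists alone, 5 of 20 transcription factors and 2 of 14 effectors.

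Among 42 other nuclear receptors 0 were called by limma in E1 against control, where 0.104% of all probes were. There 8 had an unadjusted p under 0.05, against 13.1% of all probes. In ELF against control 1 was called higher, where 1.48% of all probes were. A count of 1 in 42 is near that share and is not a result about the receptors as a set. In E1 against control 9 were called with the replicate block over the 10 arrays of both groups, a fit that called 4400 probes. With that block over 15 arrays 0 were called. Quantile normalization, a median shift and the authors' deposited table each gave 1, with 538, 327 and 268 probes called in that order. The receptor that rose in ELF was Rarg, a retinoic acid receptor, at -3.71 ± 0.31 (SD, n = 5) in control, -3.32 ± 0.12 (SD, n = 5) in E1 and -2.63 ± 0.35 (SD, n = 5) in ELF. The rise was 1.08 (SE 0.17, limma adjusted p = 0.0211), and it was 0.47 (limma adjusted p = 0.421) once slide was a fixed block. With each array left out in turn Rarg was called in 8 of 10 fits. The glucocorticoid receptor gene Nr3c1 differed by 0.07 between ELF and control and the clock repressor Nr1d1 by 0.74 (limma adjusted p = 0.177). Neither was called.

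In ELF against control, 1 of the 20 immediate early transcription factors was called higher and 1 lower, and 2 of the 14 effectors were called higher. Of all probes, 1.48% were called higher and 0.879% lower. Atf3, a stress-induced factor named here after its values were seen, rose by 0.54 (limma adjusted p = 0.0492), and Klf4, a zinc finger factor also found in endothelium, fell by 0.89 (SE 0.20, limma adjusted p = 0.0408). Dusp1 rose by 0.45 (SE 0.11, limma adjusted p = 0.0478) and Gadd45g, a growth arrest gene, by 0.55 (SE 0.11, limma adjusted p = 0.0304). With slide as a fixed block 0 of these 4 were called by limma, and Klf4 differed by -0.06. With each array left out in turn Gadd45g was called in 6 of 10 fits, Klf4 in 3 and Dusp1 in 2 (without control 5 or without ELF 4). None of the regulators, partners, described targets or chaperones was called by limma in ELF against control. At an unadjusted p under 0.05 there were 2, 4, 0 and 1 of them in that order, with 23.3% of all probes. With each array left out in turn, at most 1 regulator, 2 partners, 3 described targets and 1 chaperone were called. Those fits called 0 to 7150 probes. Under the alternatives, which called 0 to 2549 probes, at most 2 partners were called, and 0 regulators, described targets or chaperones. The partners with the smallest p were Med1, a mediator subunit and coactivator (-0.46, limma adjusted p = 0.0544), and Ncoa1, a steroid receptor coactivator (-0.28, limma adjusted p = 0.0789). The other 2 partners at an unadjusted p under 0.05 were higher in ELF, Rxrb, a retinoid X receptor, by 0.31 and Trim28, a corepressor, by 0.26, both named after their values were seen. The smallest p among the chaperones was that of Dnajc3, a cochaperone of Hspa5 (-0.53, limma adjusted p = 0.122), and among the regulators that of Ep300 (-0.32, limma adjusted p = 0.146). In ELF against E1, 0 genes of the 7 lists were called by limma, with 11 of the 20 transcription factors and 5 of the 14 effectors at an unadjusted p under 0.05, against 9.99% of all probes (0.0052% called). With slide as a fixed block, which called 6836 probes in this comparison, 4 transcription factors, 0 effectors, 1 regulator, 2 partners, 5 described targets, 0 chaperones and 10 other nuclear receptors were called. Without a block, the list median of the immediate early transcription factors in ELF against E1 was -0.28, against 0.04 for all probes. Csrnp1 was at -0.59 and Arc at -0.77 in that fit.

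Markers of some other cells and regions, though not all, moved with the groups in which Nr4a1 was compared. In the lists for claustrum and deep cortex, microglia and macrophages, astrocytes and oligodendrocytes, 0 markers were called in any comparison. The mean levels of those lists overlapped between all groups. The mean level of 7 endothelial markers was -1.004 to -0.320 in control, -1.39 to -1.16 in E1 and -1.57 to -1.20 in ELF, and all 7 differences from control were negative in E1 and 6 of 7 in ELF. Of them 1 was called lower in E1 (Cldn5, a tight junction protein, by -0.94), where 0.0338% of all probes were, and 3 in ELF, where 0.879% were. The 8 thalamus and habenula markers were at -0.83 to -0.59 in control, -0.68 to -0.14 in E1 and -0.73 to -0.43 in ELF, with 7 of 8 differences positive in E1 and 1 called higher there (Ramp3, a receptor activity modifier, by 0.86), against 0.0702% of all probes. The 7 choroid plexus markers were at 1.61 to 2.28 in control, 1.32 to 2.08 in E1 and -1.89 to 1.34 in ELF, with 0 of 7 called by limma in ELF against control (6 at an unadjusted p under 0.05, against 23.3% of all probes). The lowest ELF value was that of ELF 3 alone, and the other 4 ELF arrays were at 0.95 to 1.34. ELF 3 was also the highest ELF array for Nr4a1, whose difference between ELF and control was 0.33 without it. All these markers were detected on all 15 arrays, and none was at 0. Their part in the Nr4a values was not tested.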

How the data were processed

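Hippocampal RNA was hybridised to 15 single-colour Agilent mouse arrays. Per the file headers, Agilent Feature Extraction 9.5.3.1 gave each of 45018 spots a background-subtracted processed intensity, mean and local background intensities, and flags with a score of 0 or 1. The authors' deposited table holds log2 values, and the sources used here do not give their normalization. It was used as an alternative. The submitters' processing notes also name limma.

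For this work, the 1639 control spots and outlier spots were removed, log2 processed intensity was set relative to each array's 75th percentile, and spots of a probe were averaged. Probes well above background on at least 5 of 15 arrays were kept (38457 of 41174, 32939 of them on all 15). All 15 arrays were fitted in limma 3.58.1 (R 4.3.3, lmFit and eBayes, two-sided) without covariates, with Benjamini-Hochberg adjustment over all kept probes and a threshold of 0.05. Through accessions, 22951 probes matched RefSeq symbols. The fit was tested on simulated data with independent noise for each array and no slide effect. Arrays of a slide had a consensus correlation of 0.45 in the real data, so that test does not cover the slides. The number of arrays limits the precision.

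Beside the Nr4a genes, the text names list members past the threshold (at most 6 a list, otherwise the 2 with the smallest p), a few fixed genes, and the 5 genes most correlated with each Nr4a gene. The members and lists were chosen with earlier results of these data known. The alternatives were normexp background correction (offset 50), quantile and median normalization, the authors' table, other filters on dim probes, 1 probe per gene name, only the groups compared, slide and replicate number as blocks, and each array left out. Slide numbers come from the array identifiers, and the arrays were scanned on 1 day. Same-numbered E1 and control arrays deviated together in 5 of 5 pairs (correlations 0.15 to 0.29), which was taken as pairing although the labels give no shared litter, batch or day. The numbers are those of the sample titles. The source names number 3 E1 samples and every ELF sample otherwise, so the blocked values hold for the title numbers alone. The same number was the best match in 3 of the 5 E1 and control pairs. For ELF against control and against E1, 2 and 1 of 5 pairs deviated together, with correlations up to 0.30 and 0.17. Correlations of this size therefore cannot establish pairing.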

Additional observations from a re-analysis of the deposited data

Results flagged for a closer look

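In groups of 5 arrays, the gap between the extreme array and its neighbour was set against the range of the group (Dixon's test, critical value 0.71). Over the named genes, 5 of 87 groups passed, and chance flags about 1 in 20 groups. Nr4a2 in E1 1 was at 2.71, with the next E1 array at 2.36. Egr2, the gene most like Nr4a1, was at -0.465 in ELF 3, the ELF array that was also highest for Nr4a1, with the next ELF array at -1.15. ELF 2 was low for Dnajc3 (-0.417, next 0.541) and for Med1 (-0.0653, next 0.459), and it was the lowest array for Nr4a2 without passing the test there. Klf4 in E1 1 was at -0.226, with the next E1 array at -0.755.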

How the results depend on the processing

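Nr4a1 in E1 against control kept its direction in all alternatives run (0.68 to 0.88) and with each array left out (0.81 to 0.95). It missed the threshold with slide as a fixed block (0.68) or a random block (0.73) and with the replicate block over 15 arrays (0.88). In ELF against control it was called without control 5 alone (0.48, range 0.33 to 0.48), and in ELF against E1 it was -0.13 within slide 3. Directions turned for Nr4a2 in ELF against E1 with slide as a fixed block (0.038), and with an array left out in E1 against control (-0.099 to 0.034) and ELF against E1 (-0.271 to 0.007). For Nr4a3 they turned with slide as a fixed block in E1 against control (-0.59), ELF against control (-1.83) and ELF against E1 (-1.24). The first and last are the differences within slides 2 and 3 themselves. Both values against control rest on control 5, the only control array on slide 2. With slide as a random block the Nr4a3 direction turned in ELF against control (-0.11) and ELF against E1 (-0.35). Ndg1 turned to -0.0205 and -0.662 with the fixed block.

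Counts of called probes moved more. E1 against control had 40, but 538 after quantile normalization, 327 after a median shift, 268 in the authors' table, 4 and 0 with slide as a fixed and a random block, 2 with the replicate block over 15 arrays, 4400 with the replicate block over both groups, and 5 to 1630 with an array left out (1630 without control 5). ELF against control had 907, but 2514, 1859 and 2549 under the same first 3, 548 with 1 probe per gene name, 0 with only both groups in the fit, 185 and 0 with the slide blocks, 287 and 0 with the replicate blocks, and 0 to 7150 with an array left out (7150 without ELF 4, 0 without control 2 or control 3). ELF against E1 had 2, but 0 with normexp, a median shift, the authors' table, only both groups, slide as a random block or either replicate block, 1 after quantile normalization, 6836 with slide as a fixed block, and 0 to 15 with an array left out. The cause was not tested. By the correlation check, replicate numbers were not taken to pair ELF arrays with the others. Nr4a3 is limited by its low signal over background.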

Other observations

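The array design describes 2 genes as Nur77 downstream genes, after the protein of Nr4a1: Ndg1 (now Khdc1a) and Ndg2 (now Chchd10, a mitochondrial protein). They were looked up after the data were seen. Ndg1 had a mean of -4.10 in control, -3.08 in E1 and -2.94 in ELF on the probe that passed the filter. It rose in ELF against control by 1.16 (SE 0.27, limma adjusted p = 0.0451). With each array left out in turn it was called in 3 of 10 fits (highest limma adjusted p = 0.136), those without control 5, ELF 3 or ELF 4. It was also missed in 5 of 12 alternatives. In E1 against control the difference was 1.02 (limma adjusted p = 0.119), which was not called. With slide as a fixed block these differences were -0.66 and -0.02. The other Ndg1 probe was well above background on 2 arrays and was not tested. Ndg2 differed by 0.09 in E1 and by -0.05 in ELF from control, and neither was called.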
